A study of Sus scrofa with 2 samples.

Results

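MYOD1-high satellite cells are muscle stem cells in which the mRNA of MYOD1, the transcription factor that commits a cell to the muscle lineage, was counted at least 2 times. They were 489 of the 26981 cell barcodes in 2 single-cell RNA libraries of pig muscle, 26 of 12286 in one and 463 of 14695 in the other. A barcode was taken as one of these cells when it had at least 500 detected genes, at least 2 unique molecular identifiers (UMIs, each one counted mRNA molecule) of PAX7, MYF5 and TAGLN3 together, and at least 2 UMIs of MYOD1. It also had fewer than 20 UMIs of the connective-tissue genes DCN and LUM per 10000 UMIs, fewer than 2 UMIs of ANKRD1, POPDC3 and ALDH3A1 together, fewer than 2 UMIs of the differentiation genes MYMK and MYOG together, and fewer than 3 UMIs of the division genes TOP2A, CENPF and UBE2C together. The cells were thus chosen by the measured counts of these 14 genes, whose levels below describe the choice and support nothing.

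The cells came from the longissimus dorsi, the long muscle of the back, of piglets of 2 breeds, Guangdong small-eared spotted (GDSS) and Yorkshire, which according to the study's design text differ in fat within the muscle. Neither breed is given a treatment or a genetic change in the labels, the age and number of piglets are not stated, and the meaning of "P0" in the sample titles is not given in the sources used here. Red cells were lysed and dead cells removed with magnetic beads before the 10x Genomics v2 library preparation, and each breed gave 1 library. Breed, animal, preparation and library therefore cannot be told apart, no p-value can be given, and the intervals below are exact 95% intervals that cover counting error only. The labels call the cells intramuscular vascular stem cells.

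Satellite cells lie between a muscle fibre and its sheath and are marked by PAX7. When they are activated they make MYOD1, divide as myoblasts, and later switch on MYOG, leave the cell cycle and fuse. MYF5 is a close relative of MYOD1 that quiescent satellite cells already transcribe, and the ID and HES proteins hold MYOD1 back, the ID proteins by taking its E-protein partners.

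The GDSS library held 42093851 UMIs and the Yorkshire library 54300953, and both started at 500 UMIs per barcode. The satellite gate itself, the PAX7, MYF5 or TAGLN3 count alone, took 711 of 11533 GDSS barcodes with at least 500 genes (6.17%) and 5388 of 14318 Yorkshire barcodes (37.6%). MYOD1-high barcodes had a median of 2838.5 UMIs and 1031 genes in GDSS and 3336 UMIs and 1189 genes in Yorkshire. The barcodes that met every condition except that of MYOD1, called MYOD1-low here, numbered 460 in GDSS and 3668 in Yorkshire and were shallower, with medians of 2253 and 2891 UMIs. Mitochondrial genes gave a median of 4.28% of UMIs in MYOD1-high barcodes of GDSS and 4.19% in those of Yorkshire, against 4.79% and 4.33% in MYOD1-low barcodes. A doublet score of at least 0.3 was reached by none of the 26 GDSS and 28 of the 463 Yorkshire MYOD1-high barcodes (6.05%), against 11 of 460 (2.39%) and 217 of 3668 (5.92%) MYOD1-low barcodes. The libraries shared 47 barcode sequences, and 3 of those were MYOD1-high, all in Yorkshire.

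In the MYOD1-high barcodes 5 genes of satellite cells and muscle that the choice did not use, JSRP1, CDH15, FGFR4, MEGF10 and CHRNA1, stood above their level in stroma. JSRP1, which encodes a protein of the junction where muscle couples excitation to calcium release, had 215 UMIs per 1000000 (CPM) in the GDSS library and 185 CPM in the Yorkshire library, against 0.701 and 5.26 CPM in stromal barcodes that had no UMI of the satellite genes. CDH15, the M-cadherin of satellite cells, had 88.6 CPM in the GDSS and 105 CPM in the Yorkshire library, against 2.49 and 2.63 CPM in those stromal barcodes. FGFR4, a growth factor receptor of satellite cells, stood at 152 and 64.6 CPM, against 0.351 and 1.82 CPM in stroma.

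MEGF10, which encodes a receptor of satellite cells, reached 50.7 CPM in the GDSS and 33.1 CPM in the Yorkshire library, against 1.34 and 2.83 CPM in stroma, and CHRNA1, the alpha subunit of the muscle acetylcholine receptor, reached 25.3 and 28.7 CPM, against 0.255 and 0.911 CPM. The intervals of all 5 genes lay apart from those of stroma in both libraries. ERBB3, a neuregulin receptor, was less selective: it had 823 and 944 CPM in MYOD1-high barcodes, against 458 and 801 CPM in stroma. DES, the muscle intermediate filament desmin, had 275 CPM in Yorkshire MYOD1-high barcodes, against 65.4 CPM in stroma, but in GDSS 25.3 CPM, against 35.7 CPM in stroma. Among genes outside the choice, the label of a satellite cell thus rests on the 5 genes above, and DES was not above stroma in GDSS. JSRP1 was given as a mark of these cells and MEGF10 was picked after its values were seen, so neither is independent support. The GDSS levels rest on 17 UMIs of JSRP1, 7 of CDH15, 12 of FGFR4, 4 of MEGF10 and 2 of CHRNA1.

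Of the satellite genes that let a barcode through, PAX7 had at least 1 UMI in 10 of 26 GDSS and 222 of 463 Yorkshire MYOD1-high barcodes, MYF5 in 20 and 275, and TAGLN3, which encodes an actin-binding transgelin, in 20 and 391. PAX7 and MYF5 were found in the same barcode in 8 of 26 (30.8%) and 121 of 463 (26.1%). A further 4 of 26 (15.4%) and 87 of 463 (18.8%) had TAGLN3 as their only satellite gene. MYOG, the factor of terminal differentiation, and MYMK, the fusion protein myomaker, had no UMI in any MYOD1-high barcode of either library, although the rule would have let 1 UMI through.

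Most MYOD1-high barcodes sat at the threshold. Exactly 2 MYOD1 UMIs were counted in 17 of 26 GDSS barcodes (65.4%) and in 238 of 463 Yorkshire barcodes (51.4%), and at least 5 in 3 and 59. The highest counts were 15 in GDSS and 14 in Yorkshire. Just below the threshold, 53 GDSS and 728 Yorkshire barcodes had 1 UMI, and 407 and 2940 had none. The counts fell off without a gap between MYOD1-low and MYOD1-high barcodes. Per 10000 UMIs, MYOD1 ran from 3.88 over a median of 8.13 to 39.8 in GDSS and from 1.13 over a median of 7.56 to 41.7 in Yorkshire.

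**Figure D1:**
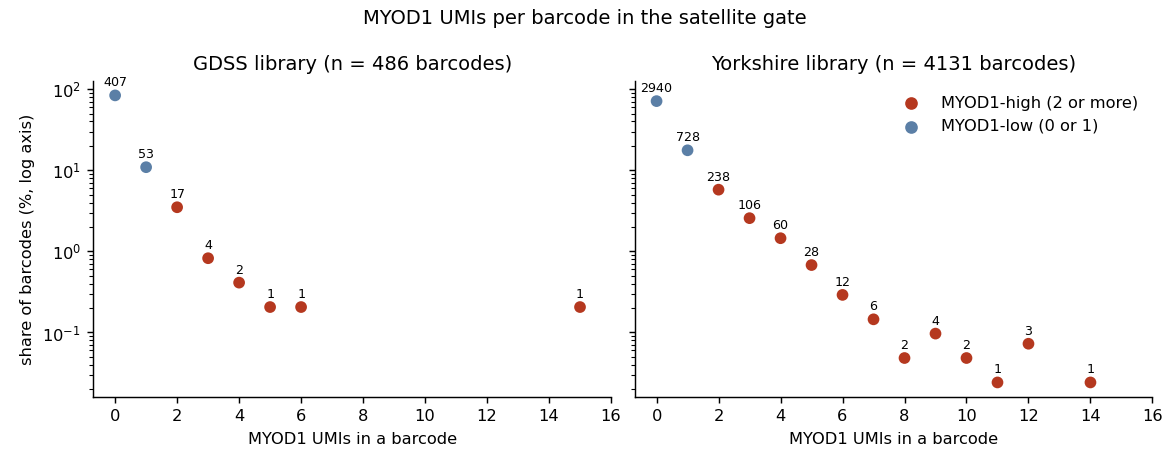
MYOD1 UMIs in each barcode that met all other conditions, with the share of barcodes on a log axis and the number of barcodes above each point, in the GDSS library (486 barcodes) and the Yorkshire library (4131 barcodes). The share drops from 0 and 1 UMI (MYOD1-low, blue) into 2 or more (MYOD1-high, red) with no gap, and 17 GDSS and 238 Yorkshire barcodes have exactly 2.

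MYOD1-high barcodes were 3.66% of the satellite gate in GDSS (interval 2.40 to 5.31) and 8.59% in Yorkshire (7.86 to 9.37). Among MYOD1-high and MYOD1-low barcodes together the shares were 5.35% (3.52 to 7.74) in GDSS and 11.2% (10.3 to 12.2) in Yorkshire. After each of those barcodes was thinned to 1500 UMIs, with 65 GDSS and 103 Yorkshire barcodes too shallow for it, the shares with at least 2 MYOD1 UMIs were 1.90% (0.824 to 3.71) and 3.90% (3.32 to 4.54). The share was lower in GDSS both at full depth and after thinning. The intervals lay apart at full depth and overlapped after thinning, where the GDSS share rests on 8 barcodes.

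MYOD1, a gene of the rule, was rare in stromal and endothelial barcodes that had no UMI of the satellite genes. At least 2 UMIs were found in 3 of 8716 stromal barcodes of GDSS (0.0344%, median 3047 UMIs) and in 8 of 2292 of Yorkshire (0.349%, median 3733.5 UMIs). Endothelial barcodes had them in 2 of 352 (0.568%, median 4981.5 UMIs) and 7 of 1536 (0.456%, median 3492 UMIs). All of these shares were below those of the satellite gate. Barcodes with a satellite gene had been left out beforehand, so the difference partly describes that choice. Inside the gate, 9 of 115 GDSS and 16 of 217 Yorkshire barcodes rich in DCN or LUM had at least 2 MYOD1 UMIs.

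The conditions left out a large part of the MYOD1 barcodes. Of all barcodes with at least 500 genes and at least 2 MYOD1 UMIs, 37 of 83 in GDSS (44.6%) and 441 of 1059 in Yorkshire (41.6%) had fewer than 2 UMIs of PAX7, MYF5 and TAGLN3. Within the gate, 9 GDSS and 129 Yorkshire barcodes with MYOD1 were set aside for ANKRD1, POPDC3 or ALDH3A1, 9 and 16 for DCN or LUM, 1 and 9 for division genes, and 1 and 1 for MYMK or MYOG.

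Barcodes that met every condition but had 0 or 1 UMI of the satellite genes numbered 22 in GDSS and 303 in Yorkshire. The 463 Yorkshire MYOD1-high barcodes had 185 CPM of JSRP1, against 202 CPM in the 303 outside (log2 ratio −0.12, −0.38 to 0.14). CDH15 stood at 105 CPM, against 131 CPM outside (−0.32, −0.65 to 0.020), ITGA7, an integrin of muscle cells, at 93.3 against 118 CPM (−0.34, −0.69 to 0.014), and FGFR4 at 64.6 against 52.9 CPM (0.29, −0.20 to 0.79). The intervals of these 4 ratios covered 0 and reached from 1.5-fold lower or more for CDH15 and ITGA7 to 1.5-fold higher or more for FGFR4.

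Other genes lay apart across the edge of the gate in Yorkshire. DES stood at 275 CPM in MYOD1-high barcodes against 327 CPM outside (−0.25, −0.45 to −0.038), and RTKN2, one of the genes named as marks, had a log2 ratio of 0.39 (0.028 to 0.76). FOS stood at 11462 CPM (11307 to 11619) against 9060 CPM (8871 to 9252) outside, and CDKN1C, the cell cycle inhibitor p57, at 997 CPM (952 to 1044) against 733 CPM (680 to 789). In GDSS, FOS had a log2 ratio of 1.22 (1.08 to 1.37) CDKN1C of 0.90 (0.36 to 1.46) and JSRP1 of 1.35 (0.0077 to 2.86, 17 UMIs inside and 7 outside), while DES had −1.74 (−5.04 to 0.66) from 2 UMIs inside and 7 outside.

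MYF5, one of the genes of the rule, is given here as a description. It stood at 800 CPM in MYOD1-high barcodes and 1060 CPM in MYOD1-low barcodes of Yorkshire, a log2 ratio of −0.41 (−0.49 to −0.33), and at 1026 and 1272 CPM in GDSS, a log2 ratio of −0.31 (−0.65 to 0.011). With 0, 1, 2, 3 and at least 4 MYOD1 UMIs, Yorkshire barcodes had 1083, 971, 827, 648 and 883 CPM of MYF5, so the barcodes with most MYOD1 were not the lowest. PAX7 stood at 191 CPM in MYOD1-high and 157 CPM in MYOD1-low barcodes of Yorkshire (log2 ratio 0.28, 0.11 to 0.44, and −0.20 with thinning before the choice) and at 228 and 187 CPM in GDSS (0.29, −0.49 to 0.98). In barcodes thinned to 1500 UMIs, PAX7 was found in 22.7% of MYOD1-high and 21.3% of MYOD1-low barcodes of Yorkshire, and MYF5 in 45.2% and 52.4%.

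The other genes named as marks of these cells were shared with MYOD1-low barcodes. OSGIN1, an oxidative stress response gene, stood at 104 CPM in MYOD1-high and 88.9 CPM in MYOD1-low barcodes of Yorkshire (log2 ratio 0.23, 0.00019 to 0.46) and at 139 and 84.3 CPM in GDSS (0.72, −0.32 to 1.62). RTKN2 stood at 121 and 94.4 CPM in Yorkshire (0.36, 0.14 to 0.57, and −0.088 after thinning to 1500 UMIs) and at 63.3 and 65.9 CPM in GDSS (−0.058, −1.72 to 1.22). JSRP1 stood at 185 and 184 CPM in Yorkshire (0.015, −0.15 to 0.18) and at 215 and 169 CPM in GDSS (0.35, −0.46 to 1.06). None of the 3 was 1.5-fold apart in Yorkshire.

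**Figure D2:**
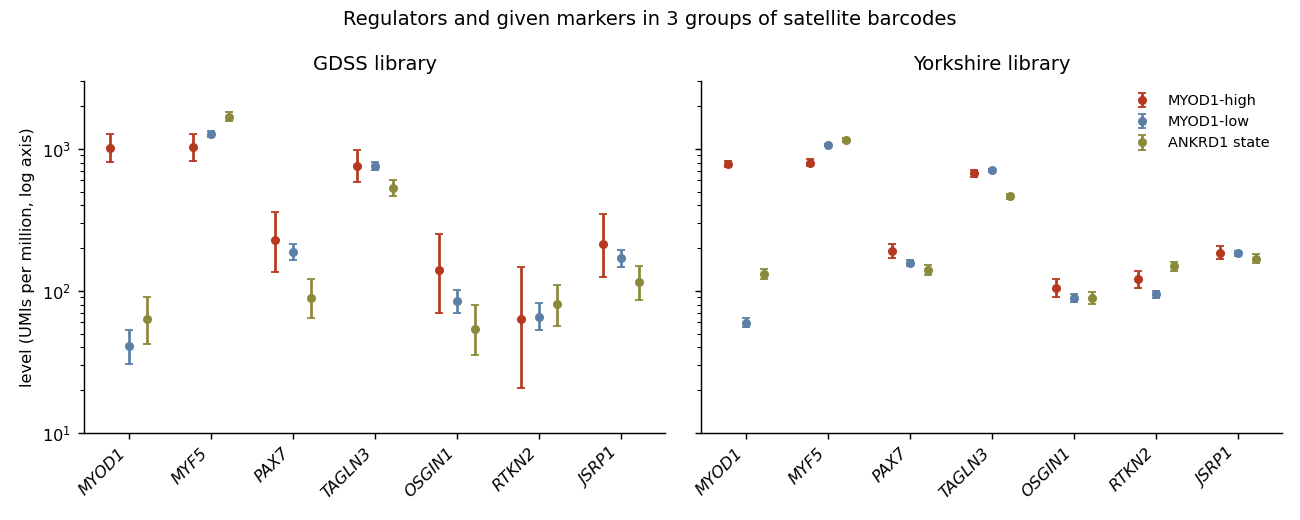
Level in UMIs per 1000000 (CPM, log axis) of MYOD1, MYF5, PAX7, TAGLN3, OSGIN1, RTKN2 and JSRP1 in MYOD1-high (red), MYOD1-low (blue) and ANKRD1-state barcodes (green) of each library, with the summed level as a point and the exact 95% counting interval as a bar. MYOD1, on which the groups were cut, has 1013 CPM in the GDSS and 784 CPM in the Yorkshire MYOD1-high barcodes, and in Yorkshire JSRP1 is at 185 CPM in MYOD1-high and 184 CPM in MYOD1-low barcodes.

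Beyond MYOD1 itself, MYOD1-high and MYOD1-low barcodes differed in few genes. Genes were compared when both sums together held at least 50 UMIs, the 14 genes of the rule were left out, and a gene was counted as higher or lower when it was at least 1.5-fold apart. Of 3035 genes compared in both libraries, 2 were higher in MYOD1-high barcodes of both (0.0659%) and 28 were lower (0.923%). In Yorkshire alone 376 of 9350 genes were higher (4.02%) and 640 lower (6.84%), and among the 3136 genes with at least 500 UMIs there 6 were higher (0.191%) and 26 lower (0.829%). In GDSS alone, where the sums are small, 368 of 3036 genes were higher (12.1%) and 732 lower (24.1%). Over every gene compared, log2 ratios had a median of −0.062 in GDSS and 0.018 in Yorkshire.

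The 2 genes higher in both were MRPL18, which encodes a protein of the mitochondrial ribosome, and PDGFD, a platelet-derived growth factor. MRPL18 stood at 88.6 CPM in MYOD1-high and 44.5 CPM in MYOD1-low barcodes of GDSS (log2 ratio 1.00, −0.38 to 2.13) and at 41.9 and 26.6 CPM in Yorkshire (0.66, 0.28 to 1.02). PDGFD stood at 63.3 and 39.1 CPM in GDSS (0.70, −0.99 to 2.01) and at 52.4 and 34.7 CPM in Yorkshire (0.60, 0.26 to 0.92). The GDSS values rest on 7 UMIs in 4 barcodes and 5 UMIs in 3 barcodes. Among barcodes of 2000 to 6000 UMIs the Yorkshire log2 ratios were 0.63 and 0.62. With every barcode thinned to 1500 UMIs before the choice, which left 117 of the 463 Yorkshire barcodes, they were −0.84 and −0.25.

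The 28 lower genes were led by genes of vessel walls, endothelium and muscle fibres. RGS5, a gene of pericytes and vascular smooth muscle, stood at 12.1 CPM in MYOD1-high and 57.9 CPM in MYOD1-low barcodes of Yorkshire (log2 ratio −2.25, −2.94 to −1.64) and at 50.7 and 112 CPM in GDSS (−1.14, −3.04 to 0.24). GJA4, a connexin of arterial cells, had log2 ratios of −1.64 (−2.62 to −0.81) in Yorkshire and −2.14 (−7.47 to 0.38) in GDSS. SOX18, an endothelial transcription factor, had −1.49 (−2.31 to −0.76) and −1.63 (−6.96 to 0.92).

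Troponin T of fast fibres, TNNT3, had log2 ratios of −1.37 (−1.91 to −0.88) in Yorkshire and −1.79 (−7.12 to 0.75) in GDSS. The fast myosin light chain gene MYLPF had −1.03 (−1.36 to −0.71) and −2.49 (−7.81 to 0.021). The plasma protein gene APOA1 had 103 CPM in MYOD1-high and 203 CPM in MYOD1-low barcodes of Yorkshire (−0.98, −1.20 to −0.77) and 76.0 and 354 CPM in GDSS (−2.22, −3.67 to −1.09). The Yorkshire interval lay below 0 for all 28 genes and the GDSS interval for 5, and 14 of the 28 had at most 1 UMI in the GDSS MYOD1-high barcodes.

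Summed levels of markers of other cell types differed between the groups as well, not always in the same direction in both libraries. In Yorkshire the 8 mural markers summed to 273 CPM in MYOD1-high and 364 CPM in MYOD1-low barcodes, the 8 endothelial markers to 257 and 350 CPM, and the 6 myofibre markers found in the files to 212 and 374 CPM. In GDSS the mural markers summed to 431 and 761 CPM, the endothelial markers to 443 and 374 CPM, and the myofibre markers to 50.7 and 471 CPM. Gene by gene, the endothelial markers measured had median log2 ratios of −0.58 in GDSS and −0.57 in Yorkshire. Every GDSS MYOD1-high UMI of CLDN5, an endothelial marker, lay in 1 barcode. The 8 markers of stromal fibro-adipogenic progenitors (FAP) summed to 3558 CPM in MYOD1-high and 2154 CPM in MYOD1-low barcodes of GDSS, and to 2008 and 2101 CPM in Yorkshire. DCN and LUM, which the rule capped in both groups, are among these 8 markers, so the values partly describe the choice. In GDSS 4 of the 6 measured were higher, beside 12.1% of all genes. Per 10000 UMIs, the highest GDSS MYOD1-high barcode had 348 UMIs of these markers, beside a median of 16.9. In Yorkshire these values were 292 and 15.2. The 8 macrophage markers summed to 92.7 CPM in MYOD1-high and 48.5 CPM in MYOD1-low barcodes of Yorkshire. There 5 of the 7 measured were higher, beside 4.02% of all genes. Per 10000 UMIs, the median Yorkshire MYOD1-high barcode had 0 UMIs of them and the highest 104. None of the mural, endothelial or myofibre markers was at 0 in Yorkshire MYOD1-high barcodes, and 1, 2 and 2 of them were at 0 in GDSS. Without barcodes that had at least 2 UMIs of the markers of any other cell type, which left 23 GDSS and 379 Yorkshire MYOD1-high barcodes, 3 of 2046 genes were lower. The APOA1 log2 ratio in Yorkshire was then 0.017. The part of these markers in the count was not tested further.

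**Figure D3:**
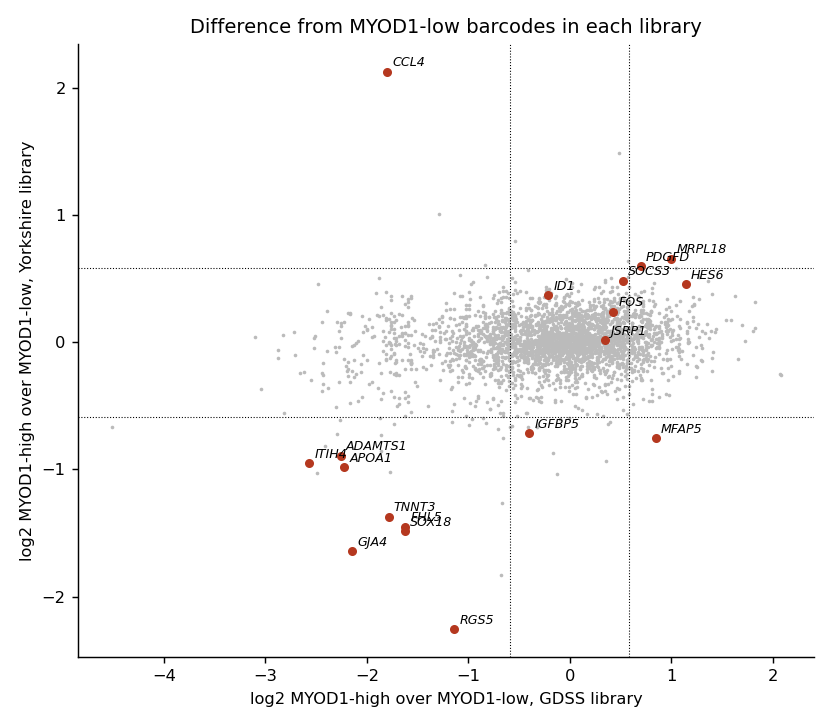
Log2 ratio of MYOD1-high over MYOD1-low barcodes in the GDSS library (horizontal) and the Yorkshire library (vertical), 1 point per gene compared in both with the genes of the rule left out, and dotted lines at 1.5-fold. Most genes lie between the dotted lines in Yorkshire and spread along the GDSS axis, where 26 barcodes were summed, and the lower left corner holds RGS5, GJA4, SOX18, FHL5 and TNNT3.

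The immediate early genes, transcription factors that a cell switches on within minutes of a stimulus, had list medians above that of all genes. In Yorkshire 16 were measured against MYOD1-low barcodes, and none was 1.5-fold apart, beside 4.02% of all genes higher and 6.84% lower. The median log2 ratio was 0.24, beside 0.018 over all genes. FOS stood at 11462 CPM in MYOD1-high and 9706 CPM in MYOD1-low barcodes of Yorkshire (log2 ratio 0.24, 0.22 to 0.26) and at 16791 and 12480 CPM in GDSS (0.43, 0.35 to 0.51). The list ran from FOSL1 at −0.37 (−0.58 to −0.17) to EGR2 at 0.44 (0.19 to 0.68). In GDSS 15 were measured, with a median of 0.37 beside −0.062 over all genes, and 5 were higher and 1 lower, beside 12.1% and 24.1% of all genes. IER3, a gene of cell survival, stood there at 1228 CPM in MYOD1-high and 579 CPM in MYOD1-low barcodes (1.09, 0.77 to 1.39), and MYC at 253 and 492 CPM (−0.96, −1.68 to −0.32).

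Single barcodes varied far more than these sums. FOS per 10000 UMIs ran from 0 over a median of 54.5 to 893 in Yorkshire MYOD1-high barcodes, against 0, 24.2 and 925 in MYOD1-low barcodes. In GDSS it ran from 3.29 over a median of 127 to 627, against 0, 68.2 and 695. The ranges overlapped in both libraries. FOS was also abundant outside the satellite lineage, at 10501 CPM in stromal barcodes of GDSS and 7142 CPM in those of Yorkshire.

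None of the 13 inhibitors of MYOD1 measured in Yorkshire was 1.5-fold apart between MYOD1-high and MYOD1-low barcodes, with a median log2 ratio of 0.10. Over all genes 4.02% were higher and 6.84% lower there. ID1, which binds the E-proteins, stood at 487 CPM in MYOD1-high and 377 CPM in MYOD1-low barcodes of Yorkshire (0.37, 0.27 to 0.48) and at 532 and 616 CPM in GDSS (−0.21, −0.70 to 0.24). HES1, the Notch target that represses MYOD1, stood at 677 and 545 CPM in Yorkshire (0.31, 0.22 to 0.40) and at 747 and 590 CPM in GDSS (0.34, −0.067 to 0.72). HES6, a relative that counters HES1, had 0.46 (0.052 to 0.84) in Yorkshire and 1.14 (−0.38 to 2.37) in GDSS. In GDSS 12 of the inhibitors were measured, 2 were higher and 3 lower, beside 12.1% and 24.1% of all genes, and the median was −0.20.

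Of 14 myogenic regulators and E-protein partners measured in Yorkshire, none was higher and 1 was lower, beside 4.02% and 6.84% of all genes. The median log2 ratio was 0.038. The E-protein genes TCF3 and TCF12 had 0.0029 (−0.49 to 0.46) and 0.016 (−0.23 to 0.25). The gene that was lower was MEF2C, a partner of the myogenic factors that endothelial cells also transcribe, at 6.62 CPM in MYOD1-high and 19.7 CPM in MYOD1-low barcodes (−1.57, −2.55 to −0.74). In GDSS none of 6 genes of the list was higher and 3 were lower, beside 12.1% and 24.1% of all genes. Their median there was −0.47.

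The quiescence genes had a median of −0.066 in Yorkshire, with 2 of 22 lower and none higher, beside 6.84% and 4.02% of all genes. CDKN1C stood at 997 CPM in MYOD1-high and 913 CPM in MYOD1-low barcodes (0.13, 0.055 to 0.20), and FOXO1 at 131 and 99.6 CPM (0.39, 0.19 to 0.60). The Notch pathway had a median of −0.20, with 2 of 14 lower, beside the same 6.84%. NOTCH3, a receptor of satellite and mural cells, stood at 44.7 and 69.5 CPM (−0.64, −0.98 to −0.31). In GDSS 1 of 18 quiescence genes was higher and 2 were lower, with a median of −0.024. Of 7 Notch genes measured there 2 were higher and 2 lower, with a median of 0.18. Over all genes of GDSS 12.1% were higher and 24.1% lower.

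Among 10 postsynaptic and receptor genes of muscle measured in Yorkshire, 1 was higher, beside 4.02% of all genes, and the median was 0.016. The higher gene was CHRNA1, at 28.7 CPM in MYOD1-high and 16.5 CPM in MYOD1-low barcodes (0.80, 0.33 to 1.24). GDSS had 2 UMIs of CHRNA1, or 25.3 CPM in MYOD1-high against 36.8 CPM in MYOD1-low barcodes (−0.54, −3.63 to 1.39). CHRNB1, the beta subunit, had 0.39 (0.11 to 0.66) in Yorkshire and 0.55 (−0.70 to 1.59) in GDSS.

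Of 14 sarcomere and cytoskeleton genes measured in Yorkshire, 3 were lower and none higher, beside 6.84% and 4.02% of all genes. Their median was −0.19. Of 11 fusion and adhesion genes 1 was lower, with a median of −0.12. In GDSS 8 of the 9 sarcomere and cytoskeleton genes measured were lower, beside 24.1% of all genes, with a median of −1.68. Of 8 fusion and adhesion genes measured there 4 were lower and none higher, with a median of −0.66. DES stood at 275 CPM in MYOD1-high and 239 CPM in MYOD1-low barcodes of Yorkshire (0.20, 0.065 to 0.34) and at 25.3 and 105 CPM in GDSS (−2.05, −5.11 to −0.17). The myofibre markers given above were lower in the same barcodes, and their part in these counts was not tested.

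Of 16 genes of the insulin-like growth factor and TGF-beta axis in Yorkshire, 1 was higher and 5 were lower, with a median of −0.25. Over all genes 4.02% were higher and 6.84% lower. IGFBP5, a binding protein of the growth factors, stood at 123 CPM in MYOD1-high and 202 CPM in MYOD1-low barcodes (−0.72, −0.92 to −0.52) and had −0.40 (−1.37 to 0.43) in GDSS. MSTN, the brake on muscle growth, stood at 9.93 and 16.7 CPM in Yorkshire (−0.75, −1.53 to −0.050). ACVR2B, the receptor of myostatin, stood at 12.1 and 6.65 CPM (0.87, 0.12 to 1.56).

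The interferon and antigen presentation list was the lowest of the gene lists in Yorkshire, with a median of −0.59. Of its 12 genes 6 were lower and none higher, beside 6.84% and 4.02% of all genes. ISG15 stood at 140 CPM in MYOD1-high and 213 CPM in MYOD1-low barcodes of Yorkshire (−0.61, −0.80 to −0.42) and at 76.0 and 148 CPM in GDSS (−0.96, −2.43 to 0.19). The list's median was −0.20 without the barcodes that held markers of other cell types, −0.22 with equal weight per barcode and 0.071 after thinning.

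SOCS3, the feedback inhibitor of cytokine signals, had ratios under 1.5-fold in both libraries, with intervals above 0. It stood at 692 CPM in MYOD1-high and 495 CPM in MYOD1-low barcodes of Yorkshire (0.48, 0.40 to 0.57) and at 671 and 468 CPM in GDSS (0.52, 0.088 to 0.93). Of 13 genes of the chemokine, cytokine and adhesion list 3 were counted as higher in Yorkshire, beside 4.02% of all genes. These 3 lay in few barcodes. CXCL8 had 102 of its 108 UMIs and VCAM1 38 of 56 in 1 MYOD1-high barcode. IL6 had 102 UMIs in 7 barcodes, 47 of them in 1, and without that barcode 30.4 CPM in MYOD1-high, against 24.2 CPM in MYOD1-low barcodes. The macrophage markers, given above, were higher in the sum of Yorkshire MYOD1-high barcodes, and all 8 were at 0 in GDSS MYOD1-high barcodes. Whether they lay in the barcodes with CXCL8, VCAM1 or IL6 was not tested.

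Heat shock, glycolysis and hypoxia, and ribosome genes gave no gene 1.5-fold apart in Yorkshire. Their medians were 0.015 over 14 genes, 0.056 over 12 and 0.060 over 11. Oxidative stress genes had 1 of 14 higher and 2 lower, and growth arrest genes 1 of 15 lower, with medians of −0.078 and 0.13. Over all genes 4.02% were higher and 6.84% lower.

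In Yorkshire, larger shares of genes separated the MYOD1-high barcodes from the ANKRD1 state than from MYOD1-low barcodes. The ANKRD1 state is the satellite barcodes with at least 2 UMIs of ANKRD1, POPDC3 and ALDH3A1 together. There were 105 in GDSS and 1013 in Yorkshire. ANKRD1 encodes a muscle ankyrin repeat protein that responds to stretch and YAP signalling. Of 7281 genes compared in Yorkshire, 666 were higher in MYOD1-high barcodes (9.15%) and 743 lower (10.2%), with a median log2 ratio of 0.0018. In GDSS 106 of 1284 were higher (8.26%) and 359 lower (28%). Against MYOD1-low barcodes the GDSS shares were 12.1% higher and 24.1% lower, so the larger difference was not seen in both directions there.

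Among the gene lists, immediate early genes stood furthest above the ANKRD1 state in Yorkshire. Of 15 measured in Yorkshire, 12 were higher and 1 lower, beside 9.15% and 10.2% of all genes, with a median of 1.01. FOS stood at 11462 CPM in MYOD1-high and 2982 CPM in ANKRD1-state barcodes (1.94, 1.91 to 1.97), EGR1 at 3330 and 888 CPM (1.91, 1.85 to 1.97) and FOSB at 3215 and 1033 CPM (1.64, 1.58 to 1.70). FOSL1, which encodes a late FOS relative, was the exception, at 121 and 275 CPM (−1.19, −1.40 to −0.98). In GDSS 6 of 12 immediate early genes were higher and 1 was lower, beside 8.26% and 28% of all genes. Their median was 0.54, and FOS stood at 16791 and 4517 CPM (1.89, 1.79 to 1.99).

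Of 13 inhibitors of MYOD1 measured in Yorkshire, 6 were higher in MYOD1-high than in ANKRD1-state barcodes and 1 was lower. Over all genes 9.15% were higher and 10.2% lower, and the inhibitors had a median log2 ratio of 0.23. In GDSS none of 9 was higher and 1 was lower, beside 8.26% and 28% of all genes, with a median of −0.33. ID1 stood at 487 and 177 CPM (1.46, 1.32 to 1.60) and HES1 at 677 and 279 CPM (1.28, 1.16 to 1.40) in Yorkshire. In GDSS, ID1 stood at 532 and 614 CPM (−0.21, −0.71 to 0.26). SOCS3 had 1.77 (1.64 to 1.90) in Yorkshire and 0.85 (0.37 to 1.30) in GDSS.

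Fibre genes and the chemokine CCL2 were lower than in the ANKRD1 state. Of 14 sarcomere and cytoskeleton genes 9 were lower and none higher in Yorkshire, beside 10.2% and 9.15% of all genes. Their median was −0.64. TNNT3 stood at 19.3 CPM in MYOD1-high and 103 CPM in ANKRD1-state barcodes of Yorkshire (−2.41, −2.95 to −1.91). CCL2 stood at 188 and 638 CPM (−1.76, −1.93 to −1.60) in Yorkshire and at 228 and 996 CPM (−2.13, −2.90 to −1.45) in GDSS. Of 13 oxidative stress genes 4 were lower in Yorkshire, beside 10.2% of all genes. SRXN1, which restores peroxiredoxins, stood at 58.0 and 159 CPM (−1.45, −1.76 to −1.15).

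MYOD1 was found in the ANKRD1 state as well. At least 2 UMIs were counted in 11.2% (10.3 to 12.2) of MYOD1-high and MYOD1-low barcodes of Yorkshire together, against 12.7% (10.7 to 14.95) of its ANKRD1-state barcodes. Thinned to 1500 UMIs, the shares were 3.90% (3.32 to 4.54) and 3.67% (2.60 to 5.02). In GDSS they were 5.35% (3.52 to 7.74) and 8.57% (4.0 to 15.65) without thinning. The intervals overlapped in each of these pairs.

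**Figure D4:**
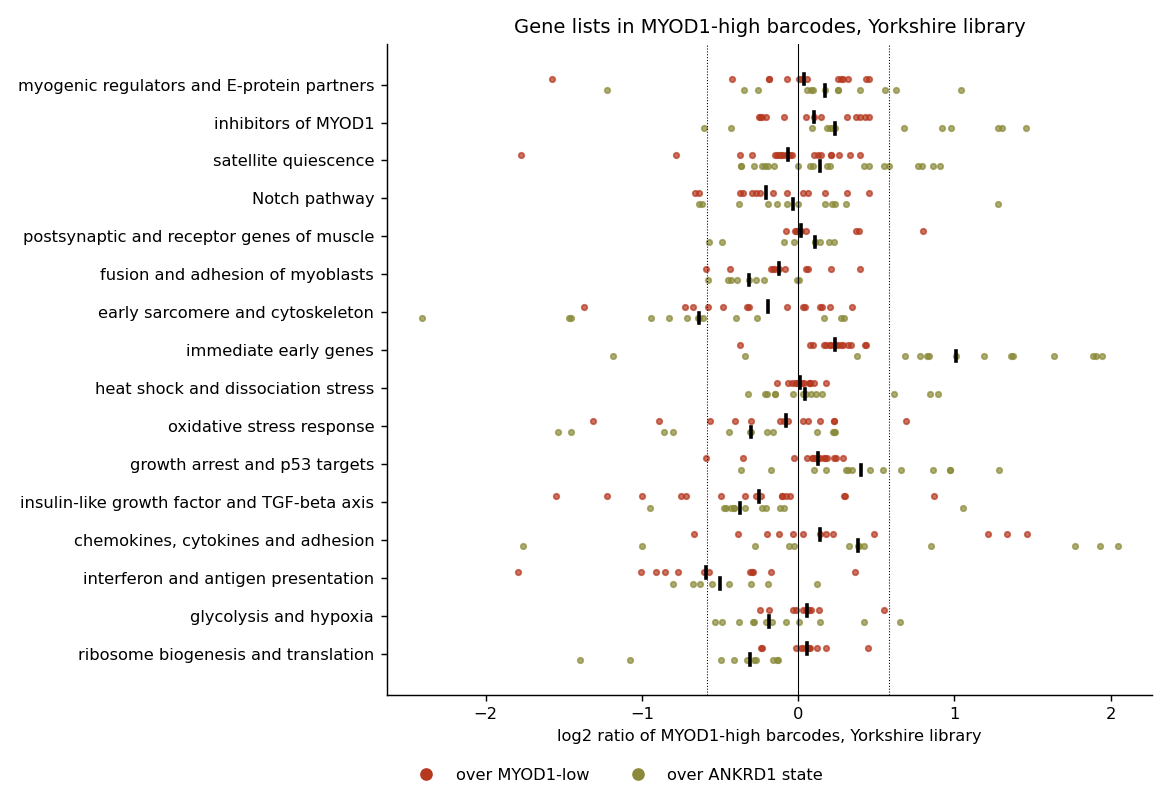
Log2 ratio of each measured gene in 16 gene lists, for MYOD1-high over MYOD1-low barcodes (red) and over ANKRD1-state barcodes (green) of the Yorkshire library, with black ticks at list medians and dotted lines at 1.5-fold. Against MYOD1-low barcodes the medians lie between −0.59 (interferon) and 0.24 (immediate early genes), and against the ANKRD1 state the immediate early genes have a median of 1.01 and the sarcomere genes −0.64.

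Against all other barcodes of the gate, 14 of 5114 genes were higher in both libraries (0.274%) and 107 lower (2.09%). In Yorkshire alone 465 of 10202 were higher (4.56%) and 1039 lower (10.2%), and of the 4192 genes with at least 500 UMIs 22 were higher (0.525%) and 105 lower (2.5%). Those barcodes include 115 GDSS and 217 Yorkshire barcodes rich in DCN or LUM, of which 54.8% and 54.4% had a doublet score of at least 0.3. With such barcodes left out of the others, 6 of 3887 genes were higher and 43 lower.

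Between the breeds, MYOD1-high barcodes were compared over sums of 78970 UMIs in GDSS and 1811912 in Yorkshire. Of 4050 genes, 588 were higher in GDSS (14.5%) and 1195 lower (29.5%), with a median log2 ratio of −0.18. With TMM factors in place of total UMIs the split was 339 higher and 1622 lower, and with median-of-ratios factors 357 and 1577. Of the 1195 lower genes 438 had at most 1 UMI in GDSS, and the interval lay below 0 for 221, while it lay above 0 for 145 of the 588 higher genes. MYOD1-low barcodes, with larger sums, gave 1140 of 9286 genes higher (12.3%) and 1676 lower (18%), with a median of −0.041.

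CCN1, a secreted matrix protein and target of YAP, was the most abundant of the genes furthest above in GDSS. It had 1684 CPM in the GDSS and 560 CPM in the Yorkshire MYOD1-high barcodes, a log2 ratio of 1.59 (1.32 to 1.85), and 17 of the 26 GDSS barcodes held it. In MYOD1-low barcodes it stood at 1048 and 484 CPM (1.11, 1.03 to 1.20), so the breeds differed in the same direction there.

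GLIPR2, a protein of the Golgi membrane, had 291 CPM in the GDSS and 80.6 CPM in the Yorkshire MYOD1-high barcodes (1.85, 1.15 to 2.49), with 23 GDSS UMIs in 12 barcodes. AKR1B1, aldose reductase, stood at 228 and 74.5 CPM (1.61, 0.82 to 2.33). HADHA, an enzyme of mitochondrial fatty acid oxidation, stood at 253 and 92.2 CPM (1.46, 0.71 to 2.13). MYOD1-low barcodes had log2 ratios of 0.73, 0.17 and 0.61 for these genes.

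NPTN, a cell adhesion protein, PDLIM4, an actin-bound adaptor, and SLC10A1, a bile acid transporter, were also among the 10 furthest above, at 1.58 (0.58 to 2.46), 1.54 (0.66 to 2.32) and 1.5 (0.62 to 2.27). The remaining 3 rested on single GDSS barcodes. COL1A1, fibrillar collagen, had 44 of 49 UMIs in 1 barcode, the endothelial claudin gene CLDN5 had all 22 in 1, and IER5L had 10 of 13 in 1. The FAP markers, with DCN and LUM of the rule among them, summed to 3558 CPM in GDSS and 2008 CPM in Yorkshire MYOD1-high barcodes. Of the 8 markers 1 was at 0 in GDSS. Per 10000 UMIs, the highest GDSS barcode had 348 UMIs of the FAP markers, beside a median of 16.9.

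For the genes furthest below, a gene with no GDSS UMI was set to 3 counts and could so rank behind a gene with 1, and the order among them is not firm. DES was found in 2 of 26 GDSS barcodes (7.69%) and 220 of 463 Yorkshire barcodes (47.5%), at 25.3 and 275 CPM, a log2 ratio of −3.44 (−6.49 to −1.58). With at least 3 MYOD1 UMIs the ratio was −1.10, and with at least 5 per 10000 UMIs it was −1.23. MYOD1-low barcodes had DES in 83 of 460 (18.0%) and 1531 of 3668 (41.7%), at 105 and 239 CPM (−1.19, −1.44 to −0.94). Stromal barcodes without satellite genes had 35.7 CPM in GDSS and 65.4 CPM in Yorkshire, so the GDSS MYOD1-high level of 25.3 CPM (3.07 to 91.5) was not above that of stroma.

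MYLIP, a ubiquitin ligase that degrades the LDL receptor, had 1 UMI in GDSS and 299 in Yorkshire MYOD1-high barcodes (−3.70, −9.01 to −1.21), and −1.06 in MYOD1-low barcodes. With at least 3 MYOD1 UMIs its ratio was −2.20, and with at least 5 per 10000 UMIs −2.44. The growth inhibitor gene BTG1, the acetyltransferase gene EP300, PNPLA8, a phospholipase gene, UBALD2 and VEGFA, the vessel growth factor, each had 1 GDSS UMI and log2 ratios from −3.10 to −3.00. With at least 5 MYOD1 UMIs per 10000 these ratios were −2.33 for BTG1, −2.16 for EP300, −0.97 for PNPLA8, −1.53 for UBALD2 and −1.58 for VEGFA. ACTA1, the actin of muscle fibres, had 1 UMI in GDSS and 190 in Yorkshire (−3.05, −8.36 to −0.55, and −2.42 under that condition), but was higher in GDSS in MYOD1-low barcodes, at 289 and 167 CPM (0.79, 0.63 to 0.95). The marks OSGIN1, JSRP1 and PAX7 were not 1.5-fold apart between the breeds, with intervals that covered 0. RTKN2 stood at 63.3 CPM in the GDSS and 121 CPM in the Yorkshire MYOD1-high barcodes (−0.93, −2.57 to 0.31), past 1.5-fold but with an interval that covered 0 as well.

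**Figure D5:**
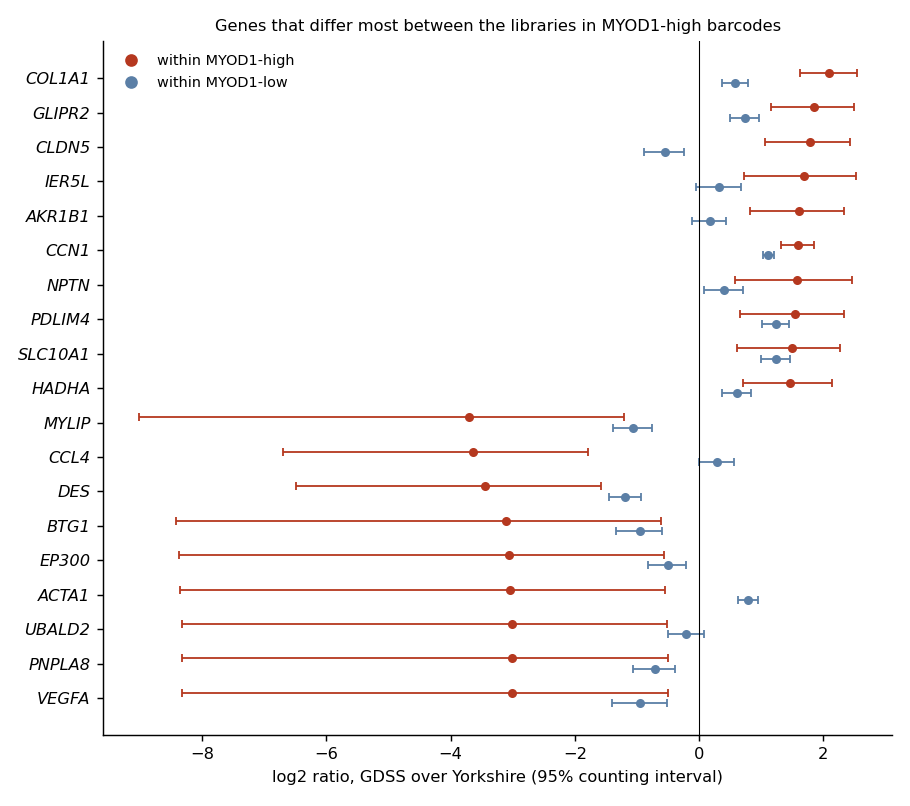
Log2 ratio of GDSS over Yorkshire for the genes furthest above and furthest below in MYOD1-high barcodes (red), with the same ratio in MYOD1-low barcodes (blue) and exact 95% counting intervals as bars. The intervals of the lower genes in MYOD1-high barcodes are wide because each has 1 or 2 GDSS UMIs, and CLDN5, CCL4 and ACTA1 lie on the other side of 0 in MYOD1-low barcodes.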

How the data were processed

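The values deposited by the authors are raw UMI counts for each gene in each barcode. Cell Ranger is named in the submitters' processing notes, and the file headers give a software version of 3.1.0. R 3.5.2 is named without a role. For genome build and annotation the entry is: not given in the sources used here. Both feature files list 21301 features. Symbols came from the files for 14846, and RefSeq gene tables added 680.

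Counts were summed over the barcodes of a group in each library and scaled to UMIs per 1000000. Log2 ratios of 2 sums have exact conditional binomial 95% intervals, levels have exact Poisson and shares exact Clopper-Pearson intervals. All cover counting error only. A gene with no UMI in a group was set to a floor of 3 counts over the group. Gene counts needed at least 50 UMIs over both sums and a ratio of at least 1.5-fold. With 1 library per breed no test across samples was possible. Doublets were scored with scrublet (scanpy 1.11.5) and kept, except in an alternative. Thinning was to 1500 UMIs. TMM factors came from edgeR 4.0.16. The steps for ratios and counts were run on counts simulated from the group sums. That simulation had no spread between barcodes, so it could not test whether the intervals cover such spread. Stromal and endothelial barcodes were those with markers of that type and no UMI of the satellite genes.

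The members and gene lists were chosen with earlier results of these data known. Genes named are those of the rule and the given markers, the 12 highest and 12 lowest of MYOD1-high over MYOD1-low by the smaller ratio of both libraries, the 10 highest and 10 lowest of GDSS over Yorkshire with at least 100 UMIs, and up to 5 of each list with the largest ratios. Other genes named, among them ISG15, SOCS3, TCF3, TCF12 and MEGF10, were picked after their values were seen. Some genes that the rule names are not reported here. Alternatives were the minimum UMIs, the scaling, the MYOD1 threshold, mitochondrial share, doublets, depth, the comparison barcodes and 3 more chosen after the data were seen.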

Additional observations from a re-analysis of the deposited data

Results flagged for a closer look

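MFAP5, which encodes a microfibril protein, lay on opposite sides in the libraries. Its log2 ratio of MYOD1-high over MYOD1-low barcodes was 0.84 in GDSS (−0.84 to 2.17, 5 UMIs) and −0.75 in Yorkshire (−1.45 to −0.12, 22 UMIs). The chemokine gene CCL4 was also opposite, at −1.80 in GDSS (−4.86 to 0.087, 2 UMIs) and 2.13 in Yorkshire (1.97 to 2.28), where 530 of 572 UMIs lay in 1 barcode. With 1 library per breed the difference between the libraries was not tested for either gene.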

How the results depend on the processing

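No paired analysis was possible because each breed had 1 library. The main counts were 2 genes higher and 28 lower in MYOD1-high than in MYOD1-low barcodes of both libraries, 14 and 107 against all other satellite barcodes, 588 and 1195 for GDSS over Yorkshire, and shares of 3.66% in GDSS and 8.59% in Yorkshire. Given next, in the same order, are the counts that moved past 1.5 times and the shares that left their interval, with all gene counts for the scalings. A minimum of 20 UMIs gave 25 and 43 genes against MYOD1-low, 61 higher against all others and 1264 higher in GDSS. A minimum of 200 UMIs gave 0 and 5, 2 and 46, and 84 and 318. TMM factors gave 1 and 42, 7 and 128, and 339 and 1622. Median-of-ratios factors gave 1 and 42, 7 and 124, and 357 and 1577. MYOD1 of at least 3 UMIs left 9 GDSS and 225 Yorkshire barcodes and gave 5 and 18, 49 and 46, 386 and 606, and shares of 1.27% and 4.18%. MYOD1 of at least 5 UMIs per 10000 gave 1 and 69, 190 lower against all others, and a GDSS share of 5.34%. Without doublet scores of at least 0.3, 4 genes were higher than in MYOD1-low barcodes. Barcodes of 2000 to 6000 UMIs gave 0 and 7, 5 and 44, and a GDSS share of 5.90%. Thinning to 1500 UMIs before the choice left 7 GDSS and 117 Yorkshire barcodes and gave 7 and 7, 16 lower against all others, 66 and 116 between breeds, and shares of 1.64% and 3.42%. Leaving DCN- or LUM-rich barcodes out of the others gave 6 and 43. Among the alternatives chosen after the data were seen, leaving out barcodes with markers of other cell types gave 3 lower than in MYOD1-low barcodes and 5 and 48 against all others. Equal weight per barcode gave 14 lower than in MYOD1-low barcodes and 67 lower than in all others. Leaving out barcodes found in both libraries moved none of these counts past 1.5 times.

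Of the gene ratios recomputed, 1018 stayed within their counting interval, 140 moved beyond it and 18 reversed, where only a ratio that was at least 1.5-fold at first counts as reversed. The 1018 include ratios that a setting could not change. The minimum UMIs and the choice among all other barcodes leave each of these ratios as it was. Taking MYOD1-low only at 0 UMIs leaves each ratio between breeds as it was. Smaller ratios that changed sign, such as those of PAX7, RTKN2 and TAGLN3 in Yorkshire after thinning, are not among the 18. Between breeds, COL1A1 was −1.32 with at least 3 MYOD1 UMIs and −0.45 with at least 5 per 10000, CRYAB −2.88 with at least 3 and −1.61 after thinning, and IER5L −0.037 without barcodes with markers of other cell types. In Yorkshire over MYOD1-low, CCL4 was −0.37, FABP4 0.13 and PLVAP 0.66 at 2000 to 6000 UMIs, and PLVAP 0.13 with equal weights. After thinning, MRPL18 was −0.84, PDGFD −0.25, TNNT3 0.41, CCL4 −1.49, SPP1 −1.09, DUT −1.82 and the interferon list's median 0.071. Without barcodes with markers of other cell types, APOA1 was 0.017 and TNNI2 and RASL11A 0.41 each. The minimum UMIs and the thinned or stricter choices test fewer genes or barcodes by construction, and otherwise the cause was not tested. The 26 GDSS barcodes limit every GDSS value.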
